A study of Homo sapiens with 4 samples.

Results

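The aryl hydrocarbon receptor (AHR) genes and cytochrome P450 genes described here are 7 genes, chosen by name from 35993 in the table: AHR, ARNT, AHRR, TIPARP, CYP1A1, CYP1B1 and CYP24A1. They were selected with earlier fold changes from these same 4 libraries in view, so their levels and fold changes are descriptions and carry no test. All 7 passed the filter on low counts, as did 16599 genes in all.

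The cells were MDA-MB-231, an established human breast cancer line of mesenchymal character, without estrogen or progesterone receptor. They were transfected with control siRNA (siControl) or with an siRNA against connective tissue growth factor (siCTGF), and either left untreated or given kahweol, a diterpene of coffee, at 50 µM for 48 h in serum-free medium. Each of the 4 combinations was sequenced as 1 library, so no condition has a replicate and every interval below covers counting error only. The model is 1 line and 1 siRNA sequence per arm. The study dissolved kahweol in DMSO, and the labels name no vehicle for untreated cells, so kahweol and its solvent cannot be told apart.

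AHR is a ligand-activated transcription factor of the bHLH-PAS family. It waits in the cytoplasm in a complex with HSP90 and the cochaperone PTGES3, and after binding a ligand it enters the nucleus, pairs with ARNT and binds xenobiotic response elements. The enzymes CYP1A1 and CYP1B1, which oxidize polycyclic aromatic hydrocarbons and estrogens, are its best known target genes. AHRR and TIPARP are targets that restrain the receptor in turn: AHRR competes for ARNT and for DNA, and TIPARP is a mono-ADP-ribosyltransferase that modifies AHR. CYP24A1 stands apart from these genes, being the mitochondrial enzyme that inactivates vitamin D by hydroxylation of its side chain and a target of the vitamin D receptor (VDR).

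The core of the xenobiotic response element is GCGTG, or CACGC when read on the other strand. It was searched, with overlapping matches allowed, in the 250 bases before each RefSeq gene start (GRCh38.p14), where 32.2% of 35116 windows held at least 1 core and 10.2% held at least 2. Windows were given for 5 of the 7 genes, 8 windows in all, and 4 of these held the core. CYP1B1 and CYP24A1 had no window. The 4 windows with the core are shown 5′ to 3′ on the strand of the gene, with the core in capitals. They belong to 3 genes, CYP1A1, AHRR and TIPARP, and a link between the core and the kahweol differences was not tested. The CYP1A1 window is chr15:74725529-74725778 on the minus strand, the AHRR windows are chr5:321464-321713 and chr5:322360-322609 on the plus strand, and the TIPARP window is chr3:156674340-156674589 on the plus strand.
CYP1A1: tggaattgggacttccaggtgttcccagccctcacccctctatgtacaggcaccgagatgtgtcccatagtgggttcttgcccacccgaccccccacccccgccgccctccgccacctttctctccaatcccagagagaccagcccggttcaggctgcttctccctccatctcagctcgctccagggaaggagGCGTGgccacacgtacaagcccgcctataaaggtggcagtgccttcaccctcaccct
AHRR, window 1: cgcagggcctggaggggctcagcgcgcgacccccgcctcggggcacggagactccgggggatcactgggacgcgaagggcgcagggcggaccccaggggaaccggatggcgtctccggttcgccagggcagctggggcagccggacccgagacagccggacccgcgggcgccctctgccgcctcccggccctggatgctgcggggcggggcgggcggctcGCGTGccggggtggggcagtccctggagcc
AHRR, window 2: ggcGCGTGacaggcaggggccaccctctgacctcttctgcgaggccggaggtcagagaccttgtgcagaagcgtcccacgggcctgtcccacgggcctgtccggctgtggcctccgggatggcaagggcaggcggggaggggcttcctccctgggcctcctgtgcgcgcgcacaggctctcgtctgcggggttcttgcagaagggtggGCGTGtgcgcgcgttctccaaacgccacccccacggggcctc
TIPARP, window 1: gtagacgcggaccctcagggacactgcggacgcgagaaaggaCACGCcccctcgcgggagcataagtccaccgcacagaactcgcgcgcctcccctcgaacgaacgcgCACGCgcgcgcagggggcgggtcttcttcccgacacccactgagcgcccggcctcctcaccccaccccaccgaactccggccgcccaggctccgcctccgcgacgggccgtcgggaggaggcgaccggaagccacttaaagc
In CYP1A1 the core began 57 bases before the start of the gene. AHRR had 1 core at 30 bases in the first window and 2 in the second, at 247 and 42 bases. The 2 TIPARP cores, at 208 and 142 bases, lay on the other strand. A window with at least 1 core is common among all genes, so these matches describe the sequences and are not binding sites. The window for AHR, the one for ARNT and windows 2 and 3 of TIPARP held no core.

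The total count ran from 44781516 to 59129784 per library. CTGF (gene symbol CCN2), the target of the siRNA, was at 159 CPM (counts scaled to library size by the TMM method) in untreated siControl cells and at 63.6 in untreated siCTGF cells. The kahweol-treated siControl library had 186 CPM and the kahweol-treated siCTGF library 31.8, so the siCTGF libraries were the lower ones in both pairs. The markers of the line, VIM, CD44, EGFR and AXL, were present in each library, with VIM at 2082 to 2819 TPM, a unit that also scales for transcript length. Of 5 genes taken as absent or low in this line, ESR1 had at most 6 counts and PGR at most 37, GATA3 was at 0.303 to 1.08 TPM and CDH1 at 2.28 to 4.29 TPM, while ERBB2 was at 20.1 to 31.5 TPM. The 5 fibroblast markers summed to 4.21 to 6.12 TPM, the 3 leukocyte markers to 0.0193 to 0.162 TPM, the 2 endothelial markers to 0.130 to 0.493 TPM, and the 3 hepatocyte markers to at most 0.284 TPM with CYP3A4 at 0 counts.

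**Figure D1:**
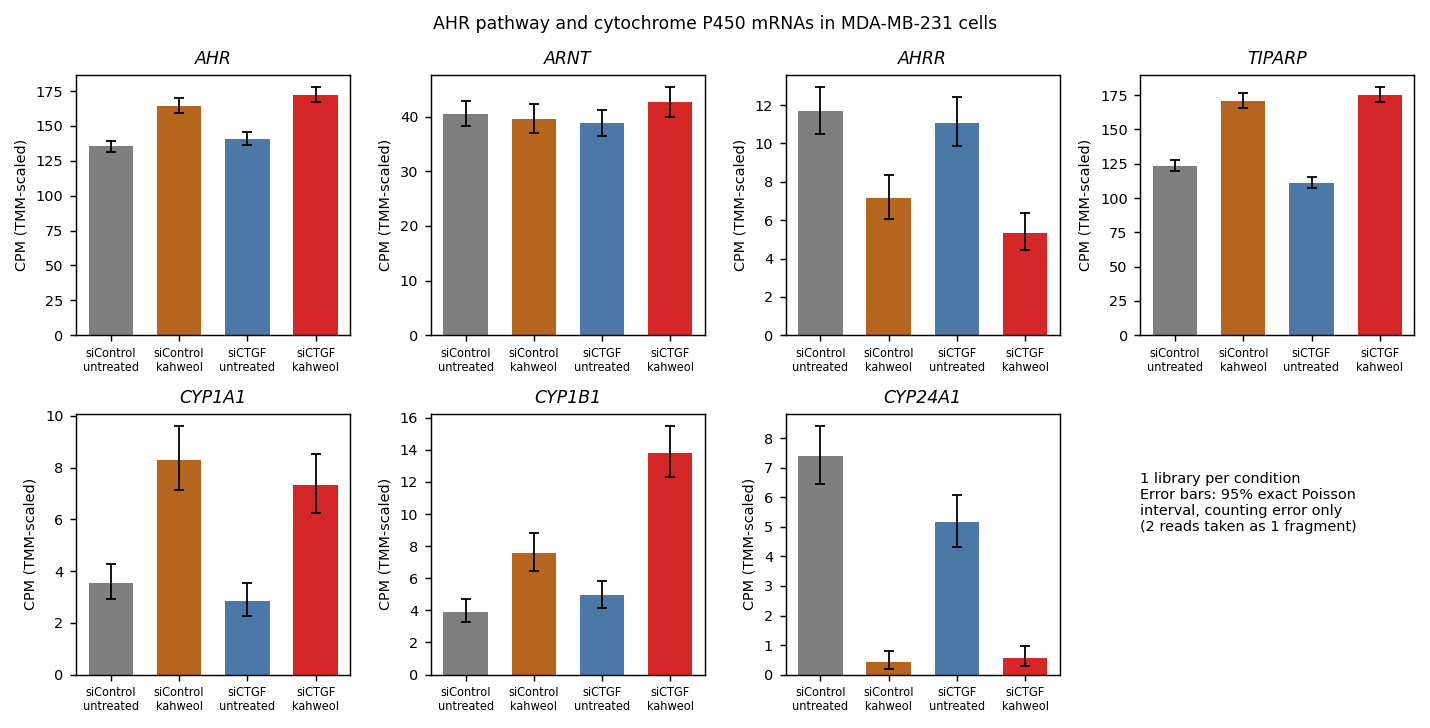
Level of each gene (y axis, TMM-scaled CPM from 0, a separate scale per gene) in the 4 libraries (x axis), with 95% exact Poisson intervals as error bars. CYP1A1, CYP1B1 and TIPARP are higher in both kahweol libraries than in both untreated ones, AHRR and CYP24A1 are lower in both, and ARNT stays between 38.8 and 42.6 CPM.

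The receptor itself was abundant. AHR (gene ID 196, chr7:17338276-17385771, plus strand, GRCh37) was at 135 CPM in untreated siControl, 164 in kahweol-treated siControl, 141 in untreated siCTGF and 172 CPM in kahweol-treated siCTGF cells. Both kahweol libraries were above both untreated libraries. The log2 fold change with kahweol was 0.28 in siControl (counting interval 0.22 to 0.35) and 0.29 in siCTGF cells (0.23 to 0.36), which stays inside the fold thresholds of 1.3 and 0.7 that the study used. On the TPM scale the same 4 libraries were at 44.7, 46.3, 44.8 and 45.7, nearly flat, and the log2 fold change shrank to 0.05 and 0.03.

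ARNT (gene ID 405, chr1:150782189-150849075, minus strand), the partner that AHR needs to bind DNA, was at 40.5 CPM in untreated siControl, 39.6 in kahweol-treated siControl, 38.8 in untreated siCTGF and 42.6 CPM in kahweol-treated siCTGF cells. The untreated and kahweol-treated libraries overlapped in range. Its kahweol log2 fold change was -0.03 in siControl and 0.14 in siCTGF cells, and the sign in siCTGF cells turned on the TPM scale, to -0.13. AHR mRNA was 2.52 to 3.13 times as abundant as ARNT mRNA by TPM over the 4 libraries.

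AHRR, the repressor, was lower with kahweol. AHRR (gene ID 57491, chr5:304291-438406, plus strand) had 730 counts (11.7 CPM) in untreated siControl, 308 (7.13 CPM) in kahweol-treated siControl, 600 (11.1 CPM) in untreated siCTGF and 237 counts (5.34 CPM) in kahweol-treated siCTGF cells. Both kahweol libraries were below both untreated ones, by a log2 fold change of -0.71 in siControl (-0.99 to -0.44) and -1.05 in siCTGF cells (-1.37 to -0.74), or 1.63-fold and 2.07-fold lower. The gene overlaps PDCD6, a calcium-binding protein gene, on the same strand. PDCD6 had 4772, 2151, 4827 and 2659 counts in the same order of libraries and was also lower with kahweol, at -0.62 and -0.57, and its part in the AHRR counts was not tested. The ratio of AHR to AHRR by TPM was 10.4 and 11.5 in the untreated siControl and siCTGF libraries and 21.0 and 29.3 in the kahweol-treated ones.

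TIPARP was the most abundant of the 7 genes by TPM in every library. TIPARP (gene ID 25976, chr3:156392379-156424559, plus strand) was at 124 CPM in untreated siControl, 171 in kahweol-treated siControl, 111 in untreated siCTGF and 175 CPM in kahweol-treated siCTGF cells. The kahweol libraries were 1.38-fold higher in siControl (log2 0.47, 0.40 to 0.53) and 1.58-fold higher in siCTGF cells (log2 0.66, 0.59 to 0.72). In siControl cells the log2 fold change fell below the threshold with total-count scaling (0.34), by FPKM (0.34) and by TPM (0.23), while in siCTGF cells it stayed above, at 0.50, 0.48 and 0.40. The antisense gene TIPARP-AS1, which overlaps its first bases, had 14 to 41 counts.

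CYP1A1, the gene most used as a readout of AHR activity, was low in untreated cells and higher with kahweol. CYP1A1 (gene ID 1543, chr15:75011883-75017869, minus strand) had 222 counts (3.55 CPM) in untreated siControl, 358 (8.29 CPM) in kahweol-treated siControl, 154 (2.85 CPM) in untreated siCTGF and 325 counts (7.32 CPM) in kahweol-treated siCTGF cells. The kahweol libraries did not overlap the untreated ones, with a 2.32-fold higher level in siControl (log2 1.21, 0.87 to 1.58) and a 2.55-fold higher level in siCTGF cells (log2 1.35, 0.96 to 1.77).

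CYP1B1, the other enzyme of the CYP1 family measured here, was higher with kahweol in both siRNA arms. CYP1B1 (gene ID 1545, chr2:38294746-38303323, minus strand) had 245 counts (3.92 CPM) in untreated siControl, 326 (7.55 CPM) in kahweol-treated siControl, 267 (4.93 CPM) in untreated siCTGF and 614 counts (13.8 CPM) in kahweol-treated siCTGF cells. The library with both siCTGF and kahweol was the highest of the 4. The kahweol log2 fold change was 0.94 in siControl (0.60 to 1.3) and 1.48 in siCTGF cells (1.19 to 1.79). By TPM, CYP1B1 was at 0.560 and 0.461 times CYP1A1 in the siControl libraries without and with kahweol, and at 0.884 and 0.956 times CYP1A1 in the siCTGF ones. CYP1A2, the third gene of the CYP1 family and a liver enzyme, had no count in any library.

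CYP24A1 had the widest range of the 7 genes, in the opposite direction to the CYP1 genes. CYP24A1 (gene ID 1591, chr20:52769985-52790525, minus strand) had 462 counts (7.39 CPM) in untreated siControl, 18 (0.417 CPM) in kahweol-treated siControl, 279 (5.16 CPM) in untreated siCTGF and 25 counts (0.563 CPM) in kahweol-treated siCTGF cells. Both kahweol libraries were far below both untreated ones, 16.3-fold in siControl (log2 -4.03, -5.30 to -3.20) and 8.62-fold in siCTGF cells (log2 -3.11, -4.16 to -2.36). A prior count of 2, added before the logarithm, makes these folds smaller than the ratios of the CPM values. With a prior count of 0.5 the log2 fold changes were -4.12 and -3.17. The few counts with kahweol make these intervals wide, while even their nearer ends lie beyond the fold changes of the other 6 genes. The ratio of CYP1A1 to CYP24A1 by TPM was 0.602 and 0.689 in the untreated libraries and 25.5 and 16.4 in the kahweol-treated ones.

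With kahweol, 3 of the 7 genes were over 1.3-fold in siControl cells (TIPARP, CYP1A1 and CYP1B1), where 28.1% of all 16599 genes were, and 2 were under 0.7-fold (AHRR and CYP24A1), where 26.3% were. The same 3 and the same 2 genes passed in siCTGF cells, where 28.4% of all genes were over and 24.2% under. Of all genes, 20.7% were over in both pairs, and 18.2% were under in both. Since the choice of the 7 genes used these contrasts, nothing is read from their counts. The median log2 fold change of all genes with kahweol was -0.02 in siControl and 0.00 in siCTGF cells. It was -0.15 and -0.15 when libraries were scaled by total count and -0.24 and -0.25 on the log2(TPM + 0.1) scale. CYP24A1 was at -4.15 in siControl and -3.25 in siCTGF cells with total-count scaling, below its main values of -4.03 and -3.11. On the log2(TPM + 0.1) scale it was at -3.89 and -3.06. There the pseudocount of 0.1 is large beside its 0.219 and 0.284 TPM with kahweol, so the shift of this gene cannot be read from that scale.

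**Figure D2:**
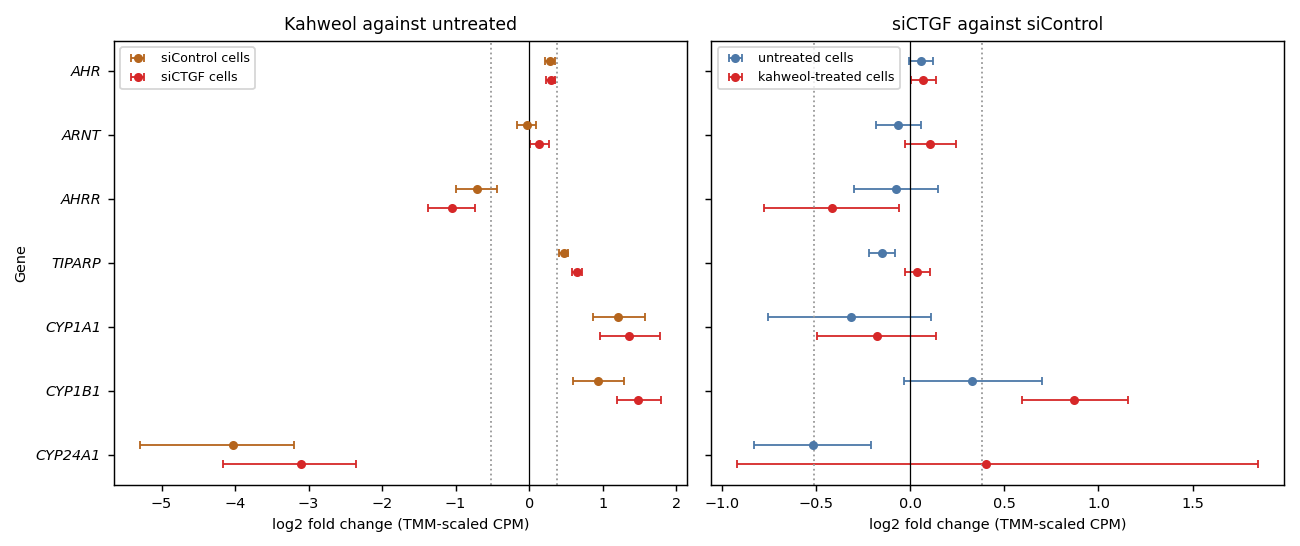
Log2 fold changes (x axis) of the 7 genes (y axis) with kahweol (left) and with siCTGF (right), each in both pairs of libraries that share no library, with 95% counting intervals as bars and the thresholds of 1.3 and 0.7 as dotted lines. The kahweol changes run from -4.03 to 1.48, and the siCTGF changes from -0.52 to 0.87.

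The siCTGF libraries differed less from the siControl ones. In untreated cells the log2 fold change with siCTGF was 0.06 for AHR, -0.06 for ARNT, -0.08 for AHRR, -0.15 for TIPARP, -0.32 for CYP1A1, 0.33 for CYP1B1 and -0.52 for CYP24A1. Only CYP24A1 passed a threshold there, at a fold of 0.699 beside the threshold of 0.7, with a counting interval of -0.83 to -0.21. In all, 9.63% of genes were over 1.3-fold in this pair and 8.99% under 0.7-fold. In kahweol-treated cells CYP1B1 was over 1.3-fold, at a log2 fold change of 0.87 (0.59 to 1.16). CYP24A1 was also over, at 0.40, on 25 against 18 counts with an interval of -0.92 to 1.85 that holds 0. The other 5 genes lay between the thresholds, from -0.42 for AHRR to 0.11 for ARNT, and 14.7% of all genes were over and 7.83% under. No gene of the 7 passed the same threshold in both pairs, while 3.25% of all genes were over in both and 2.24% below 0.7 in both.

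The kahweol change in siCTGF cells minus that in siControl cells was taken from all 4 libraries and has no test, as no degree of freedom is left. It was 0.54 on the log2 scale for CYP1B1 (counting interval 0.09 to 0.99) and 0.19 for TIPARP (0.09 to 0.28), the 2 genes whose interval did not hold 0. For CYP24A1 it was 0.92 with an interval of -0.35 to 2.19, for AHRR -0.34 (-0.75 to 0.07), for ARNT 0.17 (-0.01 to 0.35), for CYP1A1 0.14 (-0.38 to 0.66) and for AHR 0.01 (-0.08 to 0.10). These intervals do not cover the spread between cultures.

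The order of the 7 genes by TPM differed between untreated and kahweol-treated cells in its lower part. TIPARP, AHR and ARNT came first, in that order, in each library, at 66.0, 44.7 and 17.7 TPM in untreated siControl cells. There CYP24A1 (4.65 TPM) and AHRR (4.29) followed with overlapping counting intervals, then CYP1A1 (2.80) and CYP1B1 (1.57). In kahweol-treated siControl cells CYP1A1 (5.59 TPM) took place 4, ahead of CYP1B1 (2.57) and AHRR (2.21), which overlapped, and CYP24A1 was last at 0.219 TPM. In untreated siCTGF cells the 4 genes from AHRR (3.91 TPM) over CYP24A1 (3.11) and CYP1A1 (2.15) to CYP1B1 (1.90) each overlapped the next. In kahweol-treated siCTGF cells CYP1A1 (4.65 TPM) and CYP1B1 (4.44) overlapped, followed by AHRR (1.56) and CYP24A1 (0.284). Among all genes kept, CYP24A1 moved from percentile 35.4 by TPM to percentile 7.12 with kahweol in siControl cells, and from 31.2 to 9.02 in siCTGF cells.

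The genes whose pattern over the 4 libraries was most like that of CYP24A1, among 11746 protein-coding genes compared, were CHDH, WNT16, FGF1, NEK8 and ZBED2. The measure was the root mean square difference of centred log2 CPM, which was 0.259 for CHDH and 0.361 for ZBED2. CHDH, the choline dehydrogenase of mitochondria, was at 7.41, 0.695, 6.89 and 0.856 CPM in the order untreated siControl, kahweol-treated siControl, untreated siCTGF and kahweol-treated siCTGF. FGF1, a fibroblast growth factor, was at 22.9, 2.62, 27.2 and 2.43 CPM in that order. With 4 points, such likeness is a description of 1 large kahweol difference.

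The wider AHR pathway was followed with gene lists that leave out the 7 genes. For these, an additive fit over the 4 libraries tested kahweol with siRNA as a covariate (edgeR's quasi-likelihood test, Benjamini-Hochberg adjusted p under 0.05, 1 residual degree of freedom). Any interaction between the siRNA and kahweol enters this fit as noise. Over all genes it called 22.9% higher with kahweol (3805 genes) and 23.6% lower (3922). With total-count scaling the split was 2880 higher and 5162 lower. Counts per list are read beside these shares. The lists, like the 7 genes, were chosen with earlier results of these data known, which the adjusted p values do not account for.

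Of 20 other known AHR target genes, 15 were kept, 5 rose and 3 fell with kahweol and 7 did not pass the test. The median log2 fold change was 0.40 in siControl and 0.17 in siCTGF cells. It was 0.27 and 0.02 with total-count scaling and 0.17 and 0.006 by TPM, scalings that also lowered the median of all genes. Those that rose were the quinone reductase NQO1, the oxidative stress regulator NFE2L2, the prostaglandin synthase PTGS2, the transcriptional repressor HES1 and the secreted glycoprotein STC2. NQO1 was at 494 CPM in untreated siControl, 1060 in kahweol-treated siControl, 523 in untreated siCTGF and 1034 CPM in kahweol-treated siCTGF cells, so both kahweol libraries stood above both untreated ones. Its log2 fold change was 1.10 and 0.98 (edgeR adjusted p = 5.31e-05). PTGS2 was at 1.04, 3.84, 1.44 and 4.78 CPM in the same order, and NFE2L2 at 55.5, 149, 57.2 and 127 CPM. Both NQO1 and PTGS2 are also targets of other stress pathways, NQO1 of NFE2L2 itself.

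The 3 target genes that fell were XDH, EREG and IL1B. XDH, the xanthine dehydrogenase of purine breakdown, was at 4.82, 0.185, 2.51 and 0.631 CPM in the same order, with 8 counts in kahweol-treated siControl cells. EREG, an EGF receptor ligand, was at 177, 97.3, 191 and 80.8 CPM. IL1B, an inflammatory cytokine, was at 132, 106, 89.7 and 75.4 CPM, a difference inside the fold thresholds. CYP1A2 and UGT1A1 had no count in any library. STC2 was not called with DESeq2, total-count scaling, no filter on low counts or without siRNA as a covariate, and IL1B was not called without that covariate.

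The chaperones and cofactors of the receptor were mostly higher with kahweol. All 16 were kept, 10 rose, 1 fell and 5 did not pass the test, with a median log2 fold change of 0.44 in siControl and 0.32 in siCTGF cells. With total-count scaling 8 rose and 4 fell, and by TPM the median was 0.21 and 0.06. The coactivators NCOA3 (log2 fold change 1.32 in siControl and 1.23 in siCTGF cells), CREBBP (1.17 and 0.99), EP300 (0.95 and 0.89), NCOA1 (0.88 and 0.71) and NCOA2 (0.56 and 0.42) rose. So did the chaperones HSP90AA1 (1.06 and 0.69), HSP90AB1 (0.43 and 0.47) and PTGES3 (0.35 and 0.15), and the transcription factors RELB and KLF6. RB1, the retinoblastoma protein that binds AHR, fell, at -0.25 in both, but was not called with DESeq2 or without siRNA as a covariate. PTGES3 was not called with total-count scaling, no filter or without that covariate, nor KLF6 with total-count scaling.

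**Figure D3:**
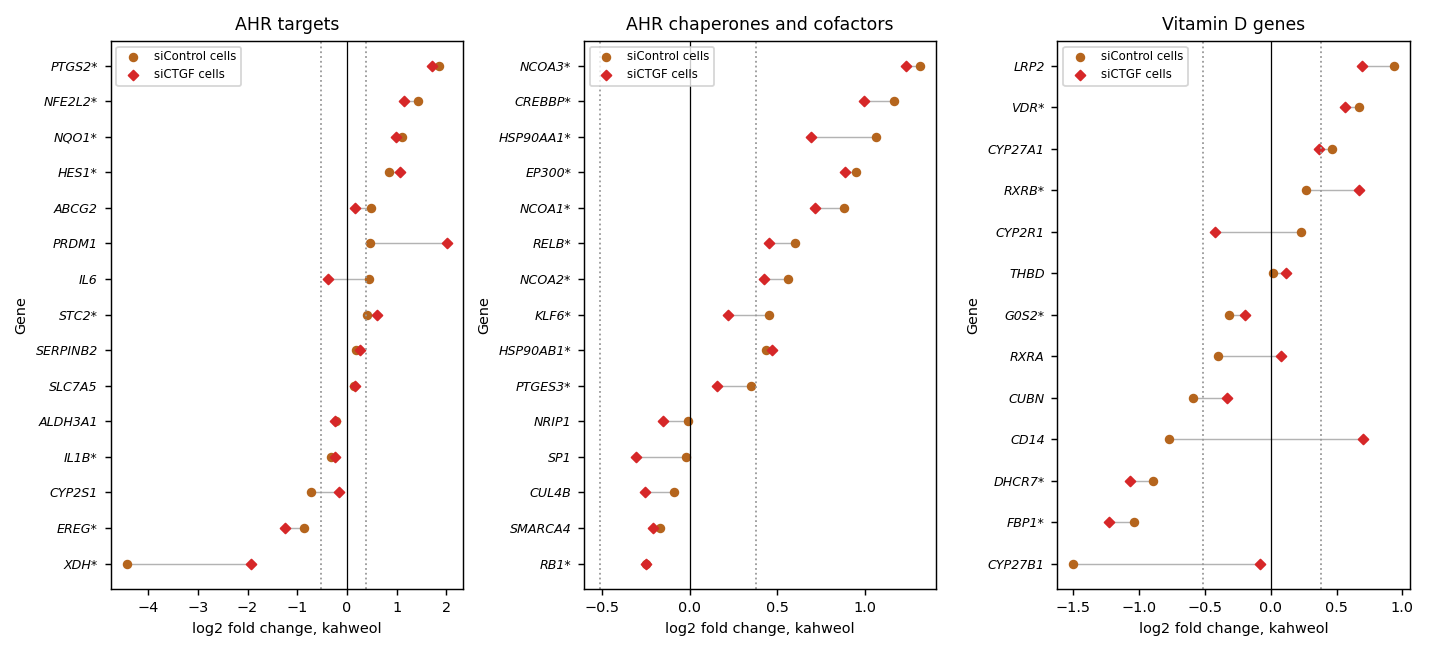
Kahweol log2 fold changes (x axis) of the genes shown from 3 lists (y axis), in siControl (circles) and siCTGF cells (diamonds), with the thresholds as dotted lines and an asterisk for an adjusted p under 0.05 in edgeR's fit over 4 libraries. Of the 15 chaperones and cofactors shown 10 carry the asterisk on the right of 0, while AHR target genes and vitamin D genes lie on both sides.

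Among other bHLH-PAS factors, 12 of 16 were kept, 3 rose, 3 fell and 6 did not pass the test. The median log2 fold change of 0.05 in siControl and 0.13 in siCTGF cells turned negative with total-count scaling, at -0.09 and -0.02. The hypoxia factors HIF1A (0.73 and 0.70) and EPAS1 (0.81 and 0.73) and the clock gene PER1 (0.89 and 0.57) rose. HIF1A and EPAS1 pair with ARNT as AHR does. ARNT2, the paralog of ARNT, fell, at 28.0, 11.6, 24.1 and 7.95 CPM in the order of libraries above, as did the clock factors ARNTL2 (-0.56 and -0.82) and NPAS2 (-0.36 and -0.55), which DESeq2 did not call.

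Vitamin D genes were set beside CYP24A1. Of 20 genes 13 were kept, 2 rose, 3 fell and 8 did not pass the test, and the median log2 fold change was -0.32 in siControl and 0.08 in siCTGF cells. The latter turned negative with total-count scaling, where the medians were -0.45 and -0.07. VDR, the receptor that drives CYP24A1, rose while CYP24A1 was lower: it was at 19.8, 31.6, 17.4 and 25.7 CPM in the same order (edgeR adjusted p = 0.0021). By TPM, VDR was at 8.79, 11.6, 7.35 and 9.06, a smaller difference. On the TPM scale 0 vitamin D genes were over 1.3-fold in both pairs, against 2 in the main setting, VDR among them. RXRB, a partner of VDR, passed the test too, at 0.26 in siControl, inside the fold thresholds, and 0.67 in siCTGF cells. RXRA, another partner, did not pass the test, at -0.40 in siControl and 0.08 in siCTGF cells. FBP1 (-1.04 and -1.23), the gluconeogenic fructose bisphosphatase, DHCR7 (-0.90 and -1.07), which uses up the precursor of vitamin D, and G0S2 (-0.32 and -0.20), an inhibitor of lipolysis, fell. G0S2 was not called without siRNA as a covariate. CYP27B1, the enzyme that activates vitamin D, had 242, 58, 106 and 82 counts and did not pass the test. Its log2 fold change was -1.50 in siControl and -0.08 in siCTGF cells.

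Enzymes that use tryptophan were a further list, mostly those of its breakdown, which makes kynurenine and other ligands of AHR. Of 13 genes 7 were kept, 2 rose, 1 fell and 4 did not pass the test, with a median of 0.13 in siControl and 0.16 in siCTGF cells. Those medians were -0.005 and 0.008 with total-count scaling. TDO2 and IDO1, which open the pathway, had 12 and 10 counts over the 4 libraries together. KYNU, which cleaves kynurenine, rose from 3.47 to 9.89 CPM in siControl and from 5.23 to 12.8 CPM in siCTGF cells. WARS1, the tryptophan tRNA synthetase, rose by 0.66 and 0.64, and KYAT1, a kynurenine aminotransferase, fell, at -1.70 and -1.48.

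P450 enzymes need electrons from partner proteins. All 10 genes of that list were kept, 3 rose, 3 fell and 4 did not pass the test, with a median of -0.01 in siControl and -0.12 in siCTGF cells. POR, the reductase that serves CYP1A1 and CYP1B1, was at 52.3, 87.6, 50.6 and 94.7 CPM in the same order. PGRMC1 (0.67 and 0.55), a heme-binding protein that binds P450 enzymes, and CYB5R1 (0.37 and 0.35) rose, the latter not with total-count scaling or without siRNA as a covariate. FDXR, the reductase of the mitochondrial chain that serves CYP24A1, fell, at -0.66 and -0.35, as did CYB5B (-1.03 and -1.22) and CYB5R3 (-0.52 and -0.68). FDX1, the ferredoxin between FDXR and CYP24A1, did not pass the test, at 0.01 and 0.05.

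Among 22 conjugating and hydrolysing enzymes of the later phase of detoxification, 18 were kept, 4 rose, 3 fell and 11 did not pass the test, with a median of -0.01 in siControl and 0.12 in siCTGF cells. With total-count scaling 3 rose and 6 fell, and the median was -0.14 and -0.04. EPHX1, the microsomal epoxide hydrolase that acts after CYP1A1 and CYP1B1 on aromatic hydrocarbons, was at 7.17, 18.8, 5.99 and 20.1 CPM in the same order. NAT1 (0.68 and 1.00), MGST1 (0.82 and 0.45) and GSTP1 (0.18 and 0.21) rose, GSTP1 inside the fold thresholds and not called with DESeq2, total-count scaling, no filter or without siRNA as a covariate. SULT1A1, a phenol sulfotransferase with near-identical copies whose reads the counting could split, was at 4.39, 0.950, 6.12 and 0.856 CPM. EPHX2 (-1.34 and -0.74) and GSTK1 (-0.72 and -0.49) fell as well, and DESeq2 did not call EPHX2.

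The table holds 56 cytochrome P450 genes, of which 26 were kept and 19 had no count. Of the 53 other than CYP1A1, CYP1B1 and CYP24A1, 23 were kept, 2 rose with kahweol, 5 fell and 16 did not pass the test, with a median log2 fold change of -0.04 in siControl and -0.08 in siCTGF cells. This list shares CYP1A2 and CYP2S1 with the AHR targets and CYP27A1, CYP27B1 and CYP2R1 with the vitamin D genes. CYP4F11, at 5.03, 10.4, 4.34 and 10.5 CPM, and CYP4F3, at 0.400, 1.78, 0.591 and 1.76 CPM, rose. They hydroxylate fatty acids and are close paralogs, so their counts are uncertain. CYP11A1, the side-chain cleavage enzyme of steroid synthesis and mitochondrial like CYP24A1, fell from 14.9 to 5.61 CPM in siControl and from 7.32 to 4.26 CPM in siCTGF cells. CYP51A1, of cholesterol synthesis (-0.21 and -0.31), CYP4V2 (-0.57 and -0.47) and CYP4F22 (-2.19 and -1.88, on 7 to 64 counts, not called by DESeq2) fell too. CYP3A5 fell on 52, 0, 33 and 6 counts. With the library at 0 set to a floor of 3 counts, it was 11.98-fold lower with kahweol in siControl cells. This is not a lower limit, as the counting interval of that log2 fold change reached up to -2.18, a smaller drop. CYP3A5 passed the filter on low counts only through the untreated libraries, and was not called without that filter.

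**Figure D4:**
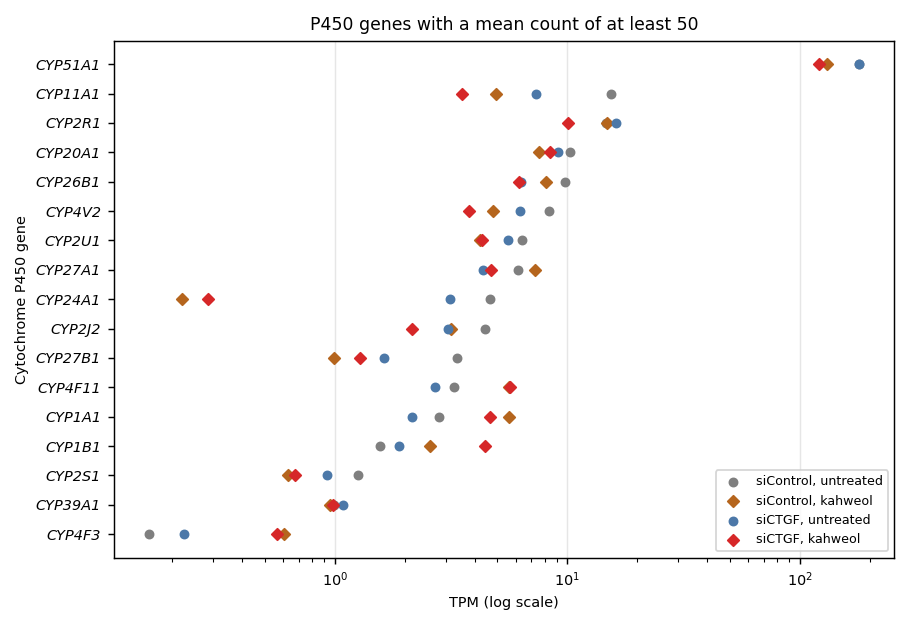
TPM (x axis, log scale) of the 17 P450 genes whose mean count reached 50 (y axis, ordered by untreated siControl), in untreated (circles) and kahweol-treated (diamonds) libraries. CYP24A1 goes from place 9 to place 17 in both siRNA arms, and CYP1A1 goes to place 7 in both.

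By TPM, CYP51A1 was the highest of these 17 P450 genes, at 121 to 180 TPM. CYP24A1 held place 9 in both untreated libraries and place 17, the last, in both kahweol-treated ones. CYP1A1 went from place 13 to 7 in siControl and from 12 to 7 in siCTGF cells, and CYP1B1 from 14 to 12 and from 13 to 8. The neighbours of CYP24A1 in untreated siControl cells were CYP27A1 (6.17 TPM) and CYP2J2 (4.41 TPM).

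For siCTGF, the same fit called no gene of these lists, the other P450 genes included, and over all genes 0.0663% higher (11 genes) and 0.0602% lower (10 genes). At an unadjusted p under 0.05 it had 851 genes higher and 794 lower. DESeq2, limma-voom, total-count scaling and a mean count of at least 100 each called IL1B lower with siCTGF, with log2 fold changes of -0.56 without and -0.49 with kahweol, and no other gene of these lists. The median siCTGF log2 fold change of the other P450 genes was -0.36 in untreated and -0.02 in kahweol-treated cells. Of the 23 kept, 7 were under 0.7-fold and 5 over 1.3-fold in untreated cells, where 8.99% and 9.63% of all genes were. In kahweol-treated cells 5 were under and 3 over, where 7.83% and 14.7% were. Some of these genes had few counts.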

How the data were processed

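RNA from 4 MDA-MB-231 cultures, 1 per condition, was sequenced from rRNA-depleted, stranded libraries. Per the submitters' processing notes, the tools were FastQC 0.11.7, Trimmomatic 0.38, HISAT2 2.1.0, Bowtie2 2.3.4.1 and StringTie 2.1.3b, with GRCh37.p13. The strand setting of the counting is not given in the sources used here, so antisense reads cannot be told apart. The estimated counts deposited by the authors are whole numbers per gene without normalization. The authors also deposited FPKM and TPM from StringTie, and a coverage signal per gene that served only to check the counts (103 to 105 aligned bases per count, so 2 reads were taken as 1 fragment). FPKM and TPM of the tables of single libraries and of all libraries differed by at most 0.000808.

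After removal of genes whose mean count was under 10, the counts were TMM-scaled (edgeR 4.0.16 under R 4.3.3) and put on the log2 CPM scale (prior count 2). Differences between single libraries on that scale are the log2 fold changes, given with 95% Clopper-Pearson counting intervals. The intervals are taken from the counts without the prior count. The quasi-likelihood test of an additive fit was run over all genes kept. Alternatives used DESeq2 1.42.0 and limma 3.58.1, other scalings, filters and thresholds, and log2 of TPM or FPKM with a pseudocount of 0.1. Samples were grouped by their labels, with 1 library each. The 7 genes and the lists were chosen with earlier results of these data known. Named from the lists were up to 3 genes per direction (mean count 50 or more, beyond one threshold in both pairs, by the smaller absolute change) and every gene the test called. P450 genes whose mean count reached 50, genes without counts and the 5 genes nearest to the member with the widest range were named as well. FDX1, RXRA, TDO2, IDO1, PDCD6 and TIPARP-AS1 were named for their role or position after their values were seen. Gene positions are GRCh37 as in the table, and promoter windows are RefSeq on GRCh38.p14; no coordinates were converted. Values for certain genes are left out here.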

Additional observations from a re-analysis of the deposited data

How the results depend on the processing

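The 4 libraries have 1 sample per condition, so the fold changes have no replicate check, leaving out a library leaves the additive fit without a residual degree of freedom, and intervals cover counting error alone. Replicates could not be paired between conditions, because each condition has only 1 library. The additive fit took siRNA as a covariate for kahweol, and kahweol as a covariate for siCTGF. Of 168 fold changes of the 7 genes under alternative settings, 148 stayed within the counting interval and 20 left it, and no called value changed sign. For CYP24A1 the kahweol change ran from -4.15 to -3.44 in siControl and from -3.25 to -2.73 in siCTGF cells. It ran from 0.97 to 1.22 and from 1.08 to 1.36 for CYP1A1, from 0.68 to 0.95 and from 1.19 to 1.49 for CYP1B1, and from -0.93 to -0.70 and from -1.27 to -1.05 for AHRR.

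With thresholds of 2 and 0.5, 1 of the 7 genes was over (main count 3) and 1 under (2) with kahweol in siControl cells. The 3 over became 2, without TIPARP, with total-count scaling, TPM, FPKM or a threshold of 1.5. The 1 gene under with siCTGF in untreated cells became 0 with DESeq2 size factors, FPKM, or thresholds of 1.5 and its inverse or of 2 and 0.5. The 2 over with siCTGF in kahweol-treated cells became 1 with total-count scaling, TPM, FPKM or thresholds of 1.5 and its inverse, and 0 with 2 and 0.5. Among the genes of the 7 lists without the other P450 genes, 32 were over with kahweol in siControl cells, against 20 by TPM and 8 at the threshold of 2, and 18 were under, against 8 at 0.5. In siCTGF cells 32 were over, against 21 by TPM and 7 at 2, and 15 under, against 23 by TPM and 9 at 0.5. With siCTGF in untreated cells 6 were over, against 12 without the filter, 1 at 1.5 and 0 at 2, and 8 under, against 4 under the inverse of 1.5 and 2 at 0.5. In kahweol-treated cells 6 were over, against 13 without the filter, 1 at 1.5 and 1 at 2, and 4 under, against 7 by TPM, 2 under the inverse of 1.5 and 0 at 0.5. The stricter thresholds lower these counts by construction, and the cause of the other moves was not tested.

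Over all genes, siCTGF gave 11 calls higher and 10 lower in edgeR, 68 and 60 with DESeq2, 32 and 28 with limma-voom, 34 and 50 with total-count scaling, 56 and 47 at a mean count of at least 100, and 0 and 0 without kahweol as a covariate, where 25 and 22 passed an unadjusted p under 0.05. List genes lower with siCTGF went from 0 to 1 under DESeq2, limma-voom, total-count scaling and the larger minimum.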
